A study of Homo sapiens with 6 samples.

Results

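Lysosomal hydrolases and membrane proteins were followed as a set of 36 named genes among the 23368 distinct genes of the deposited table, each matched by its symbol. RNA-seq was made from HepG2, a long-established line from a human liver tumour, grown in serum-containing EMEM and transduced with lentivirus that was packaged in HEK293T cells. The shCHROME group (3 libraries, replicates a, b and c) carried a short hairpin RNA in the pLKO vector directed at the variants of the long noncoding RNA CHROME, and the EV group (3 libraries, replicates a, b and c) carried a non-targeting hairpin in the same vector, so both groups were transduced and expressed a hairpin. The labels describe the hairpins as stably expressed, give no passage or clone, and give 1 hairpin code for the 3 shCHROME libraries. Whether each library is a culture of its own is not said, so every p-value rests on the variation among these 6 libraries, part of which could be technical. CHROME itself was not analysed here.

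Lysosomes break down proteins, sugar chains and lipids in an acidic lumen. Their hydrolases are made in the endoplasmic reticulum, tagged with mannose 6-phosphate and sorted to the organelle, while heavily glycosylated membrane proteins line and protect its wall. In liver cells they process cargo from endocytosis and autophagy. TFEB, a helix-loop-helix factor of the MiT-TFE family, is known to switch on many lysosomal and autophagy genes through an E-box sequence in their promoters, and is itself held in the cytoplasm by mTORC1 phosphorylation, which a transcript level does not show.

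Values are the authors' normalized counts, read counts divided by a size factor for each library. Recovered read totals ran from 29477352 to 33911426 in shCHROME libraries and from 29188213 to 35429420 in EV libraries. All 9 hepatocyte and HepG2 markers were detected. Their summed level was 1131957 to 1328173 normalized counts in shCHROME libraries, against 1413011 to 1533845 in EV libraries. Most of it came from ALB and APOB, with means of 580030 and 456396 in shCHROME and 722799 and 466633 in EV libraries. Of the 9, 6 were called lower, ALB and AFP among them, beside 6.87% of all genes tested. HNF4A, APOB and FGB were not called, with log2 fold changes of -0.03, -0.04 and 0.16. Macrophages are rich in lysosomes, and of their 10 markers 7 had under 30 reads over the 6 libraries, C1QA and C1QB among them with 0 in every library, and none of the other 3 was called. Their summed level, most of it from CD68, was 355 to 469 in shCHROME libraries and 320.0 to 496 in EV libraries. Of 6 fibroblast and stellate markers 5 had under 30 reads, DCN among them at 0, and the sum, nearly all from PDGFRB, which was called lower, was 169 to 236 in shCHROME and 336 to 451 in EV libraries. The 4 endothelial markers summed to 928 to 1007 in shCHROME and 1056 to 1101 in EV libraries, nearly all from VWF. KDR had under 30 reads, and none of the 3 tested was called. The part of these marker levels in the lysosomal results was not tested.

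A set of 6 lysosomal genes fell in shCHROME cells and none rose. TFEB, the regulator, fell 1.38-fold, the cysteine protease genes CTSL1 and CTSB 1.32-fold and 1.21-fold, the lipid enzyme relative SMPDL3A 1.22-fold, the sphingolipid activator PSAP 1.19-fold and the carboxypeptidase CTSA 1.16-fold. By role, 3 of 8 tested proteases, 2 of 6 lipid hydrolases and activators and the regulator were called. The calls were 0 of 11 glycosidases, 0 of 3 sulfatases and 0 of 6 membrane proteins. Of all genes tested 6.87% were lower, so 0 calls among so few genes do not set a class apart. Differences between these classes were not tested. In bulk RNA, fewer cells with a transcript and less of it per cell cannot be told apart.

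These calls come from limma on log2(normalized count + 1), fitted over 14598 genes with Benjamini-Hochberg adjustment and a threshold of 0.05; fold changes are on that scale. Of the 36 genes 35 passed the expression filter. The 6 lower ones are 17.1% of these 35, beside 6.87% of all genes tested that were lower, and the 0 higher ones stand beside 3.64% of all genes that were higher. These genes, and the lists below, were chosen with earlier results of these data known. A share that differs from that of all genes may come in part from this choice. At an unadjusted p under 0.05, 13 of the 35 were lower and 3 higher, where 13.5% and 10.7% of all genes were. No lysosomal gene was higher with edgeR's quasi-likelihood test or DESeq2 at an adjusted p under 0.05 either. By the authors' deposited table, a count of 7 lysosomal genes had an adjusted p under 0.05 and a lower level, the same 6 and SCARB2, and 0 a higher one, beside 6.02% and 3.02% of the genes with an adjusted p there. The median log2 fold change of the 35 was -0.06, beside 0.01 over all genes tested, and 27 of the 35 were below 0, beside 47.8% of all genes. The values ran from -0.46 for TFEB to 0.29 for GUSB. Signs near 0 depend on library scaling, here and in the lists below. With library totals GLB1 was at 0.01 and ARSA at 0.04, for example, and the median over all genes was 0.0583. Shares of lower genes depend on how libraries are scaled: over all genes 1003 were lower and 532 higher with the authors' scaling, against 702 lower and 936 higher with library totals, where 4 lysosomal genes were lower and 1, GUSB, was higher.

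**Figure D1:**
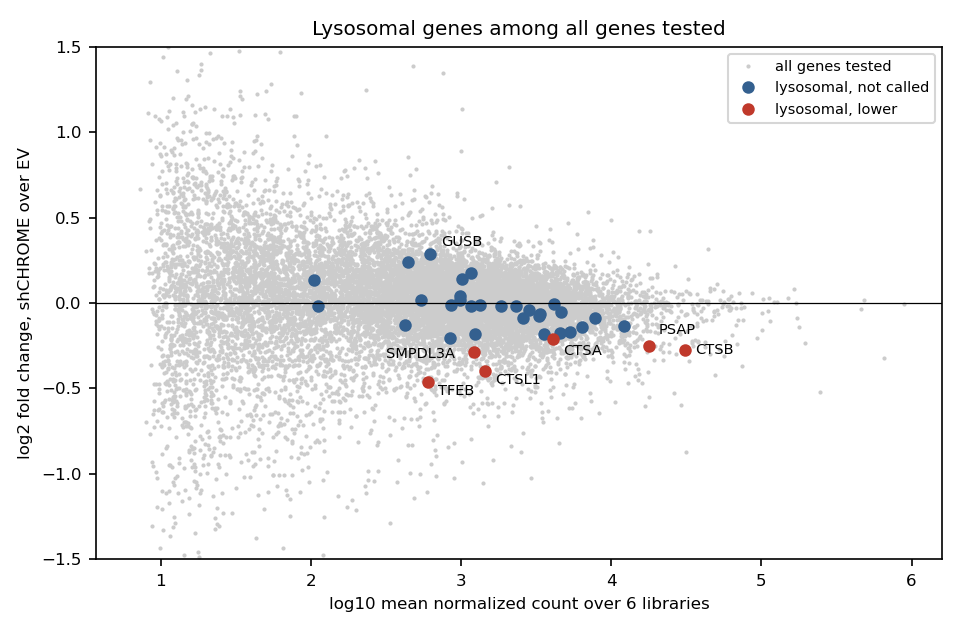
Log2 fold change (shCHROME over EV, y axis) against log10 mean normalized count over the 6 libraries (x axis) for all 14598 genes tested (grey), lysosomal genes not called (blue) and the 6 lower ones (red); 45 genes lie outside the y axis limits of 1.5. The 6 lower genes lie between -0.46 and -0.21, and PSAP and CTSB have the highest counts of the 35, which also depend on transcript length.

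Groups did not overlap in 16 of the 35 tested genes. All shCHROME libraries lay below all EV libraries in 14 of them, or 40.0%, beside 15.0% of all genes tested, and above them in 2, HEXA and GUSB, beside 13.0% of all genes. The 8 genes with shCHROME libraries below EV libraries that were not called were CTSC, CTSD, CTSH, GLA, MANBA, ARSB, LAMP2 and SCARB2. In the other 19 the groups overlapped. The standard error of a log2 fold change had a median of 0.071 over the 35 genes and 0.09 over all genes tested.

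**Figure D2:**
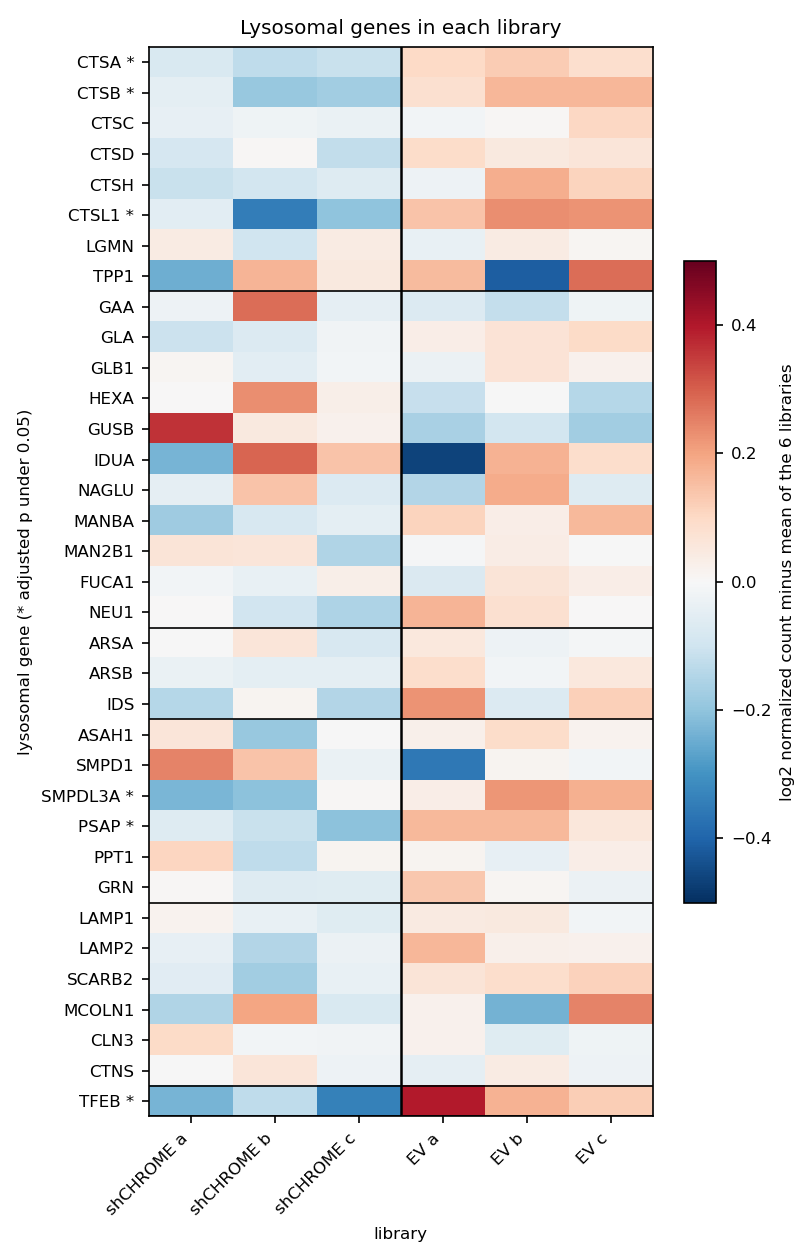
Log2 normalized count of each of the 35 tested lysosomal genes (rows, by role, with lines between roles) in each library (columns, shCHROME left of EV), minus the mean of the 6 libraries; the colour scale ends at 0.5 in both directions and no value lies beyond it. Asterisks mark the 6 genes with an adjusted p under 0.05, whose 3 shCHROME values are all below their 3 EV values.

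TFEB had the largest fall of the 35 genes. It had 503, 541 and 468 normalized counts in shCHROME replicates a, b and c, against 778, 667 and 644 in EV replicates a, b and c, with means of 504 ± 36.5 normalized counts in shCHROME cells and 697 ± 71.6 in EV cells (SD, n = 3 per group). All shCHROME values were below all EV values (log2 fold change -0.46, 95% interval -0.66 to -0.27, limma adjusted p = 0.00382). The call held in each of 16 alternative settings, with adjusted p up to 0.032. The deposited table places TFEB (ENSG00000112561) on chromosome 6, CTSL1 on 9, CTSB on 8, CTSA on 20, PSAP on 10 and SMPDL3A on 6.

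The relatives and regulators of TFEB were mostly not called, as were most of all genes tested. Of 21 listed MiT-TFE factors and genes of mTORC1 control at the lysosome, 20 were tested, 1 fell and none rose. Their median log2 fold change was -0.02. By limma 6.87% of all genes were lower and 3.64% higher, so 1 call among 20 genes does not set this list apart. At an unadjusted p under 0.05, 4 of the 20 were lower and 2 higher, beside 13.5% and 10.7% of all genes. RRAGD, a Rag GTPase that brings mTORC1 to the lysosome, had 135, 160.3 and 149.9 normalized counts in shCHROME libraries, against 237, 277 and 271 in EV libraries, so the groups were far apart, and it fell 1.76-fold (log2 fold change -0.81, 95% interval -1.08 to -0.54, limma adjusted p = 0.000466). TFE3, a factor of the same family, had a log2 fold change of -0.12 (-0.25 to 0.01), with the 95% interval in brackets, and was not called, nor was MTOR, the kinase, at -0.01 (-0.12 to 0.11), or FNIP1, a partner of the folliculin complex, at -0.06 (-0.19 to 0.07).

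E-box letters, which TFEB and many other helix-loop-helix factors bind, were looked up in RefSeq promoter windows of GRCh38.p14, from 250 bases before to 50 after a gene's start. Only genes matched by exactly 1 window were searched, which left 21 of the 36 genes. Genes with no window or with more than 1 were left out, TFEB, CTSB, PSAP and SMPDL3A among them. The shares over all windows and over genes tested also count genes with more than 1 window, so they are not matched to the 21. The letters CACGTG, which read the same on both strands, were in 6 of the 21 windows (28.6%), beside 7.26% of all 35116 windows of that length and 9.19% of the 15746 windows whose genes were tested. The longer TCACGTG, searched on both strands and containing the shorter letters, was in the same number of windows. It was in 3.71% of all windows and in 5.25% of those whose genes were tested. Of 30 windows of other lysosomal hydrolases and cofactors, a list described below, 16.7% held it. A pair of matches precede the start of CTSA, the first capital lying 43 and 26 bases before it, and a pair each lies before those of GAA and MCOLN1. LAMP1 has 6 matches, 193 to 2 bases before its start, of which the pair nearest to the start is shown, and NEU1 and CTSD have 1 each. The sites are given 5′ to 3′ on the gene's strand to set genes that fell beside genes that did not, with capitals for the E-box and any flanking T or A of the longer letters.
CTSA, chr20:45891283-45891308, plus strand: ggaagactgTCACGTGgcgccggagt
CTSA, chr20:45891300-45891325, plus strand: cgccggagtTCACGTGActcgtacac
LAMP1, chr13:113297201-113297226, plus strand: cccgcgggaTCACGTGAcgcccgggc
LAMP1, chr13:113297228-113297253, plus strand: cggcgcagcTCACGTGAcaagcgctg
MCOLN1, chr19:7522573-7522598, plus strand: cagaggcggTCACGTGAggggctctg
MCOLN1, chr19:7522600-7522625, plus strand: gctaccgggTCACGTGAccgaggcac
GAA, chr17:80101495-80101520, plus strand: gaggccgcgTCACGTGAcccaccgcg
GAA, chr17:80101540-80101565, plus strand: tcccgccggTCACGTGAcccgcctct
NEU1, chr6:31862932-31862957, minus strand: gctgcgtgaTCACGTGggaggagatg
CTSD, chr11:1763959-1763984, minus strand: cggccgcgccCACGTGAccggtccgg
Of these 6 genes CTSA fell and the other 5 were not called. CTSL1, the other gene that fell and was searched, had no match in its window, which says only that these letters are not in that window.

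**Figure D3:**
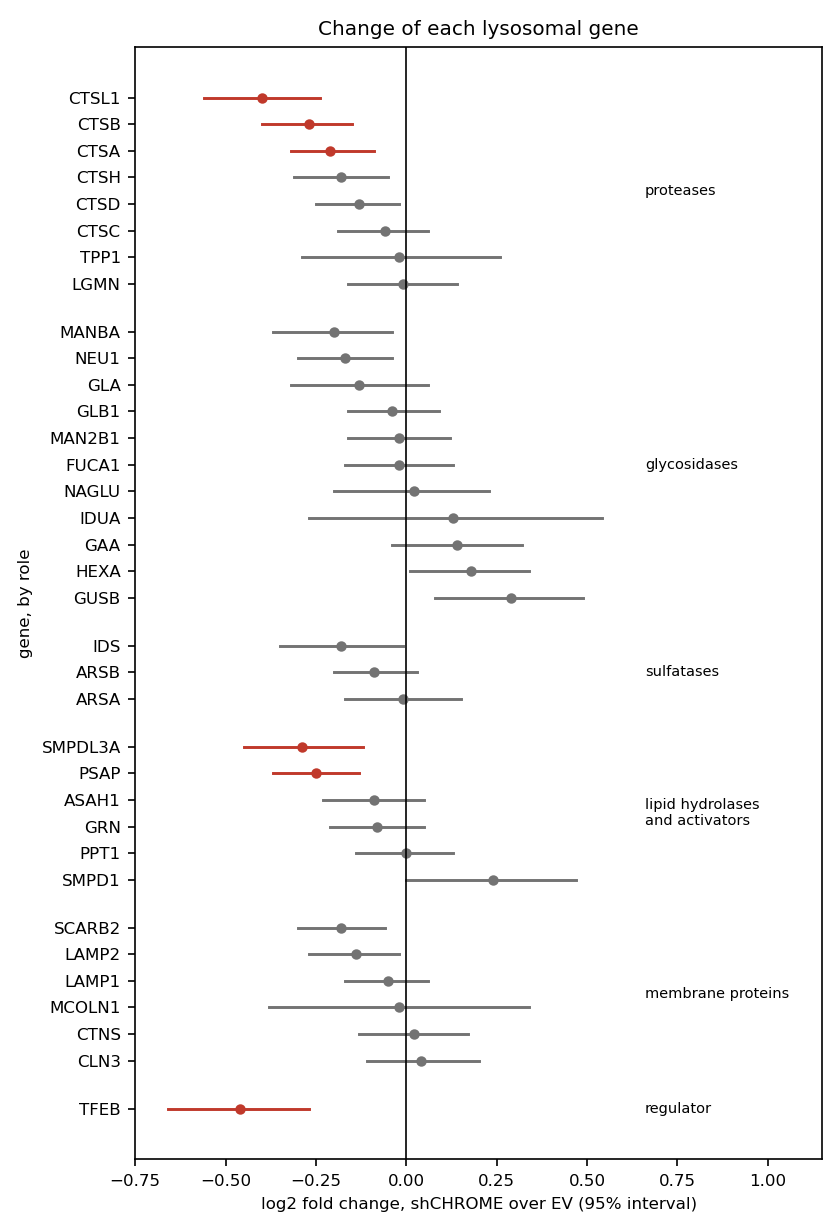
Log2 fold change (shCHROME over EV, x axis) of the 35 tested lysosomal genes (rows, grouped by role) with 95% intervals as lines; red marks the 6 genes with an adjusted p under 0.05. The red points lie between -0.46 (TFEB) and -0.21 (CTSA), and the glycosidases lie on both sides of 0, from -0.20 (MANBA) to 0.29 (GUSB).

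With the authors' scaling all 8 tested proteases had a log2 fold change below 0, beside 47.8% of all genes tested, with a median of -0.16. With library totals LGMN was at 0.04, TPP1 at 0.03 and CTSC at -0.01. The 3 called are 37.5% of them, beside 6.87% of all genes. CTSL1, which encodes the endopeptidase cathepsin L, had 1366, 1112 and 1229.8 normalized counts in shCHROME replicates a, b and c, against 1562, 1662 and 1655 in EV replicates a, b and c. The groups did not overlap, and shCHROME replicate b was lowest (log2 fold change -0.40, 95% interval -0.56 to -0.24, limma adjusted p = 0.00242). CTSB encodes cathepsin B, a cysteine protease. It had 29621, 26830.2 and 27095 normalized counts in shCHROME replicates a, b and c, against 32312, 34371 and 34342 in EV replicates a, b and c, and again no shCHROME library reached the lowest EV library. The means were 27849 ± 1540.5 normalized counts in shCHROME cells and 33675 ± 1180.4 in EV cells (SD, n = 3 per group; log2 fold change -0.27, 95% interval -0.40 to -0.15, limma adjusted p = 0.00477). Both calls held in all 16 alternatives.

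CTSA, the serine carboxypeptidase that shields beta-galactosidase and sialidase from degradation, had 3880.0, 3747 and 3779 normalized counts in shCHROME replicates a, b and c, against 4383, 4457 and 4336 in EV replicates a, b and c. The spread within each group was small, and the groups were apart (log2 fold change -0.21, 95% interval -0.32 to -0.09, limma adjusted p = 0.02). Its call was lost in 6 of 16 alternatives, with library totals (adjusted p = 0.0607), with the replicate block (0.0523), and without shCHROME replicate c (0.0783), EV replicate a (0.0706), EV replicate b (0.0723) or EV replicate c (0.0603), over a range of 0.00487 to 0.0783. Exons of CTSA share positions with PLTP and NEURL2 on the other strand in GENCODE 29, and the strand setting of the counting was not given in the sources used here. PLTP was not called, with a log2 fold change of -0.01, nor was NEURL2 with -0.16.

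The other proteases did not pass the test. CTSD, the aspartic protease cathepsin D, had 11489, 12210.1 and 11184 normalized counts in shCHROME libraries, against 12961, 12581 and 12670.3 in EV libraries, with no overlap but a small difference (log2 fold change -0.13, 95% interval -0.25 to -0.02, limma adjusted p = 0.135). CTSH, an aminopeptidase, had 3307, 3351 and 3415 normalized counts in shCHROME libraries, against 3512, 4057 and 3854 in EV libraries, and its adjusted p of 0.076 came to 0.0448 without EV replicate a. CTSC, which activates granule serine proteases in blood cells, had a log2 fold change of -0.06 (-0.19 to 0.06), and LGMN, an asparaginyl endopeptidase that matures other cathepsins, of -0.01 (-0.16 to 0.14). TPP1, a tripeptidyl peptidase, varied more than any other protease, with 1538, 2049 and 1888 normalized counts in shCHROME libraries, against 2033, 1369 and 2214 in EV libraries. The libraries of each group were spread across the same range, so its interval was wide, -0.29 to 0.26, and the value turned sign when single libraries were left out. CTSZ, the carboxypeptidase cathepsin Z, was below the filter, with 12, 6 and 10 reads in shCHROME libraries and 5, 5 and 4 reads in EV libraries. The groups did not overlap, but they differed by few reads. Without the filter its log2 fold change was 0.83 (limma adjusted p = 0.288).

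**Figure D4:**
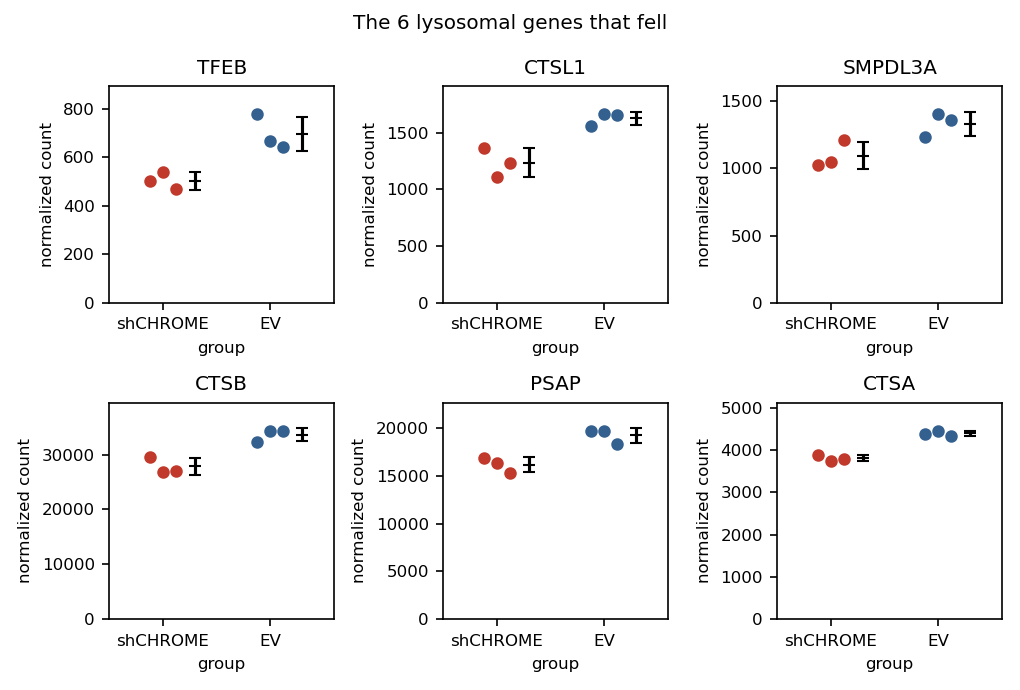
Normalized counts (y axis, from 0) of the 6 lysosomal genes that fell, in shCHROME libraries (red) and EV libraries (blue), with 1 panel per gene; each point is a library in the order a, b and c, and the black bar beside it is the mean with its SD (n = 3). In each panel the 3 shCHROME points lie below the 3 EV points, at 503.6 ± 36.5 against 696.6 ± 71.6 for TFEB.

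Glycosidases, which trim sugars from glycoproteins, glycolipids and glycosaminoglycans, gave no call among 11 tested with limma, edgeR or DESeq2. Their median log2 fold change was -0.02. By limma 6.87% of all genes were lower and 3.64% higher. At an unadjusted p under 0.05, 2 glycosidases were lower and 2 higher, beside 13.5% and 10.7% of all genes. GUSB, the beta-glucuronidase, was the highest, with 797, 640.0 and 628 normalized counts in shCHROME libraries, against 553, 581 and 549 in EV libraries. The groups did not overlap, and shCHROME replicate a stood above the other libraries (log2 fold change 0.29, 95% interval 0.08 to 0.49, limma adjusted p = 0.0668). It passed the threshold with upper quartile scaling (adjusted p = 0.0476) and with library totals (0.0303). HEXA, the alpha subunit of beta-hexosaminidase, had 1156, 1355 and 1178 normalized counts in shCHROME libraries, against 1065, 1153 and 1044 in EV libraries, again without overlap (log2 fold change 0.18, 95% interval 0.01 to 0.34, limma adjusted p = 0.176). GAA, the acid glucosidase that degrades glycogen, had 988, 1219 and 975 normalized counts in shCHROME libraries, against 958, 926 and 989 in EV libraries, with shCHROME replicate b alone well above the rest (log2 fold change 0.14, 95% interval -0.04 to 0.32, limma adjusted p = 0.348).

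On the other side, MANBA, a beta-mannosidase, had 743, 794 and 812 normalized counts in shCHROME libraries, against 906, 858 and 941 in EV libraries, without overlap (log2 fold change -0.20, 95% interval -0.37 to -0.04, limma adjusted p = 0.109). NEU1, the sialidase that forms a complex with the CTSA product, had 5289, 4947 and 4745 normalized counts in shCHROME libraries, against 5948, 5591 and 5288 in EV libraries. Its groups met at shCHROME replicate a and EV replicate c, and its adjusted p was 0.0941, and 0.0348 without shCHROME replicate a. GLA, the alpha-galactosidase, had 395, 405 and 419.9 normalized counts in shCHROME libraries, against 435, 446 and 454 in EV libraries, close in size but without overlap (log2 fold change -0.13, 95% interval -0.32 to 0.06, limma adjusted p = 0.43). The remaining 5 overlapped between groups and had these log2 fold changes with 95% intervals: GLB1, the beta-galactosidase, at -0.04 (-0.16 to 0.09), the alpha-mannosidase MAN2B1 at -0.02 (-0.16 to 0.12), the fucosidase FUCA1 at -0.02 (-0.17 to 0.13), the heparan sulfate enzyme NAGLU at 0.02 (-0.20 to 0.23), and IDUA, the iduronidase, at 0.13 (-0.27 to 0.54) with 323 reads in shCHROME and 304 in EV libraries.

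None of the 3 sulfatases passed the test with limma, edgeR or DESeq2, where 6.87% of all genes were lower by limma. At an unadjusted p under 0.05, 1 sulfatase was lower, beside 13.5% of all genes. ARSB, which removes sulfate from dermatan sulfate, had 7649.7, 7562 and 7563 normalized counts in shCHROME libraries, against 8304, 7753 and 8112 in EV libraries. The groups did not overlap, yet the difference was small (log2 fold change -0.09, 95% interval -0.20 to 0.03, limma adjusted p = 0.358). IDS, which acts on heparan and dermatan sulfate, had 1115, 1241 and 1112 normalized counts in shCHROME libraries, against 1436, 1174 and 1334 in EV libraries, with EV replicate b among the shCHROME values (log2 fold change -0.18, 95% interval -0.35 to -0.01, limma adjusted p = 0.174). ARSA, which degrades sulfatide, was nearly level at -0.01 (-0.17 to 0.15) on the log2 scale.

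In the list of lipid hydrolases and activators, PSAP and SMPDL3A fell (33.3% of 6, beside 6.87% of all genes). PSAP encodes the precursor of the saposins, small proteins that present sphingolipids to their hydrolases. It had 16837, 16298 and 15296 normalized counts in shCHROME replicates a, b and c, against 19704, 19691 and 18307 in EV replicates a, b and c, and the highest shCHROME library stayed below the lowest EV library (log2 fold change -0.25, 95% interval -0.37 to -0.13, limma adjusted p = 0.00741). The call was lost in 1 of 16 alternatives, without shCHROME replicate c (adjusted p = 0.0662, against 0.000546 as the lowest). SMPDL3A encodes a phosphodiesterase related to acid sphingomyelinase. It had 1028, 1045 and 1209 normalized counts in shCHROME replicates a, b and c, against 1233, 1404 and 1363 in EV replicates a, b and c. The groups were separated by a narrow gap, between shCHROME replicate c and EV replicate a (log2 fold change -0.29, 95% interval -0.45 to -0.12, limma adjusted p = 0.027). Its call was lost in 5 of 16 alternatives: with library totals (0.0651) and without shCHROME replicate a (0.0662), shCHROME replicate b (0.0803), EV replicate b (0.106) or EV replicate c (0.1), over a range of 0.0152 to 0.106.

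SMPD1, the acid sphingomyelinase itself, had a positive log2 fold change and was not called. It had 518, 483 and 427 normalized counts in shCHROME libraries, against 341, 441 and 433 in EV libraries, with EV replicate a well below the rest and the groups overlapping at shCHROME replicate c (log2 fold change 0.24, 95% interval 0.00 to 0.47, limma adjusted p = 0.204). ASAH1, the acid ceramidase, had 2672, 2249.7 and 2559 normalized counts in shCHROME libraries, against 2612, 2731 and 2598 in EV libraries, with shCHROME replicate b lowest (log2 fold change -0.09, 95% interval -0.23 to 0.05, limma adjusted p = 0.465). PPT1, which removes fatty acids from proteins, was level, with a log2 fold change of 0.00 (-0.14 to 0.13). GRN, the progranulin gene, whose product travels with prosaposin to the lysosome, had 3297, 3139 and 3147 normalized counts in shCHROME libraries, against 3606, 3303 and 3210.1 in EV libraries, with overlapping groups (log2 fold change -0.08, 95% interval -0.21 to 0.05, limma adjusted p = 0.49).

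The 6 membrane proteins were not called by limma or edgeR, and DESeq2 called 1, where 6.87% of all genes were lower by limma. At an unadjusted p under 0.05, 2 membrane proteins were lower, beside 13.5% of all genes. SCARB2, the receptor that carries glucocerebrosidase to the lysosome, was nearest to the threshold, with 4389, 4052 and 4457 normalized counts in shCHROME libraries, against 4773, 4857 and 4952 in EV libraries and no overlap (log2 fold change -0.18, 95% interval -0.30 to -0.06, limma adjusted p = 0.056). It was called with DESeq2 (adjusted p = 0.0381) and without shCHROME replicate a (0.0483), and its adjusted p in the authors' deposited table was 0.0473. LAMP2, a glycoprotein of the lysosomal wall that also serves chaperone-mediated autophagy, had 6149, 5714 and 6195 normalized counts in shCHROME libraries, against 7095, 6429 and 6408 in EV libraries, lower in all shCHROME libraries (log2 fold change -0.14, 95% interval -0.27 to -0.02, limma adjusted p = 0.146). LAMP1, its close relative, had 4653, 4484 and 4410.2 normalized counts in shCHROME libraries, against 4746, 4753 and 4556 in EV libraries, with overlap at shCHROME replicate a (log2 fold change -0.05, 95% interval -0.17 to 0.06, limma adjusted p = 0.614). MCOLN1, the calcium channel TRPML1, was low, with 326 reads in shCHROME and 333 reads in EV libraries, and its interval of -0.38 to 0.34 was among the widest. CLN3, the Batten disease protein, had a log2 fold change of 0.04 (-0.11 to 0.20) and CTNS, the cystine exporter, of 0.02 (-0.13 to 0.17).

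Summed over the 36 genes, the level was 128525, 123852 and 122608 normalized counts in shCHROME libraries, against 139787, 140228 and 139385 in EV libraries. This is a ratio of means of 0.894, or 0.925 with library totals, where the genes took 0.399% ± 0.00725 of shCHROME reads and 0.431% ± 0.00176 of EV reads (SD, n = 3 per group). CTSB alone gave 21.7% to 23.1% of the lysosomal reads in shCHROME libraries and 23.1% to 24.6% in EV libraries, so the sum is weighted to the genes with most reads. Without the 6 genes that fell the sum was 74367 ± 883 normalized counts in shCHROME and 78842 ± 924 in EV libraries. This remainder leaves out genes picked on these same values, and it was not computed with library totals.

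Other genes of the organelle were read from 6 further lists. Of 31 other lysosomal hydrolases and cofactors 28 were tested, 7 fell (25.0%), 1 rose (3.57%) and 20 were not called. Of all genes tested 6.87% were lower and 3.64% higher. The median log2 fold change of the 28 was -0.09, beside 0.01 over all genes. PCYOX1, which degrades prenylated cysteine, fell 1.2-fold (limma adjusted p = 0.00358), ACP5, an acid phosphatase, 1.37-fold (0.0051), and PRCP, a carboxypeptidase, 1.22-fold (0.0053). A further 3 that fell, named after their values were seen, were the sulfatase ARSG (1.63-fold), the carboxypeptidase SCPEP1 (1.4-fold, a call lost in 5 of 16 alternatives at up to 0.116) and the acid amidase NAAA (1.29-fold, lost in 3 at up to 0.0884). The gene that rose, named after its value was seen, was PLBD2, a phospholipase B-like gene. It had 571, 803 and 639 normalized counts in shCHROME libraries, against 554, 367 and 546 in EV libraries. Its 1.38-fold change (limma adjusted p = 0.0402) lost the call with DESeq2 (0.235), without the expression filter (0.0576) and with the replicate block (0.0947). The call was also lost without shCHROME replicate b (0.194), shCHROME replicate c (0.103) or EV replicate b (0.191). In the authors' deposited table its adjusted p was 0.423.

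Of 24 other lysosomal membrane proteins 22 were tested and 1 fell (4.55%), beside 6.87% of all genes tested. It was TPCN1, a pore-forming cation channel, by 1.22-fold (limma adjusted p = 0.0154). TPCN1 missed the threshold without EV replicate c (limma adjusted p = 0.104) or shCHROME replicate c (0.0528). In the authors' deposited table its adjusted p was 0.0771. LAPTM4B was at 0.16 (0.04 to 0.27), CLCN7, a chloride and proton exchanger, at -0.11 (-0.24 to 0.03) and LAPTM4A at -0.03 (-0.17 to 0.11) on the log2 scale, none of them called. At an unadjusted p under 0.05, 4 of the 22 were lower and 2 higher, beside 13.5% and 10.7% of all genes. Of 25 V-ATPase genes, which encode the proton pump, 22 were tested and 1 fell (4.55%), beside 6.87% of all genes. At an unadjusted p under 0.05, 6 V-ATPase genes were lower and 1 higher, beside the same 13.5% and 10.7%. All shCHROME libraries lay below all EV libraries in 36.4% of the 22, and 72.7% had a log2 fold change below 0, beside 15.0% and 47.8% of all genes tested. ATP6V1G1, a stalk subunit, had 2775, 2314 and 2484 normalized counts in shCHROME libraries, against 3260.1, 3231 and 3193 in EV libraries and fell 1.28-fold (log2 fold change -0.36, 95% interval -0.50 to -0.22, limma adjusted p = 0.00196), while ATP6V0B, ATP6V1A and ATP6AP2 were not called, at -0.08, -0.13 and -0.07. Of 18 genes of mannose 6-phosphate tagging and sorting none was called by limma, edgeR or DESeq2. At an unadjusted p under 0.05, 1 was lower and 1 higher, beside 13.5% and 10.7% of all genes. The median log2 fold change was 0.00. IGF2R, the large mannose 6-phosphate receptor, was at -0.01 (-0.15 to 0.12), and SORT1, another sorting receptor, at 0.04 (-0.08 to 0.15). VPS35 of the retromer was at -0.13 (-0.26 to -0.01) and the adaptor gene AP1G1 at -0.05 (-0.18 to 0.07).

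Autophagy genes, whose products deliver cargo to the lysosome, had 6 lower and 0 higher of 24 tested (25.0% lower). Of all genes tested 6.87% were lower and 3.64% higher. The median log2 fold change of the 24 was -0.06, beside 0.01 over all genes. ATG16L1, part of the complex that attaches LC3 to lipid, had 1126, 1076 and 1080.0 normalized counts in shCHROME libraries, against 1409, 1569 and 1454 in EV libraries (log2 fold change -0.43, 95% interval -0.58 to -0.28, limma adjusted p = 0.000588). GABARAPL1, a relative of LC3, had 739.8, 669 and 617 normalized counts in shCHROME libraries, against 1000.1, 965 and 892 in EV libraries (log2 fold change -0.50, 95% interval -0.68 to -0.32, limma adjusted p = 0.000943). Both were lower in every shCHROME library, as were the cargo receptors SQSTM1 and NBR1. SQSTM1 had 11461, 11441 and 10793 normalized counts in shCHROME libraries, against 14066, 14756 and 13058 in EV libraries and fell 1.24-fold (limma adjusted p = 0.00177), and NBR1 fell 1.23-fold (0.00202). These 4 calls held in all 16 alternatives. The other 2, named after their values were seen, were WIPI1 and ATG12. WIPI1, which acts in autophagosome formation, was 1.24-fold lower (limma adjusted p = 0.00789, and 0.0504 without shCHROME replicate c). ATG12, a ubiquitin-like conjugation protein, was 1.17-fold lower (limma adjusted p = 0.0428). Its call was lost in 9 of 16 alternatives, with library totals at 0.0968, and without any 1 library other than shCHROME replicate a, at up to 0.141. In the authors' deposited table the adjusted p was 0.06 for WIPI1 and 0.0662 for ATG12. It was under 0.05 there for the 4 genes above.

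**Figure D5:**
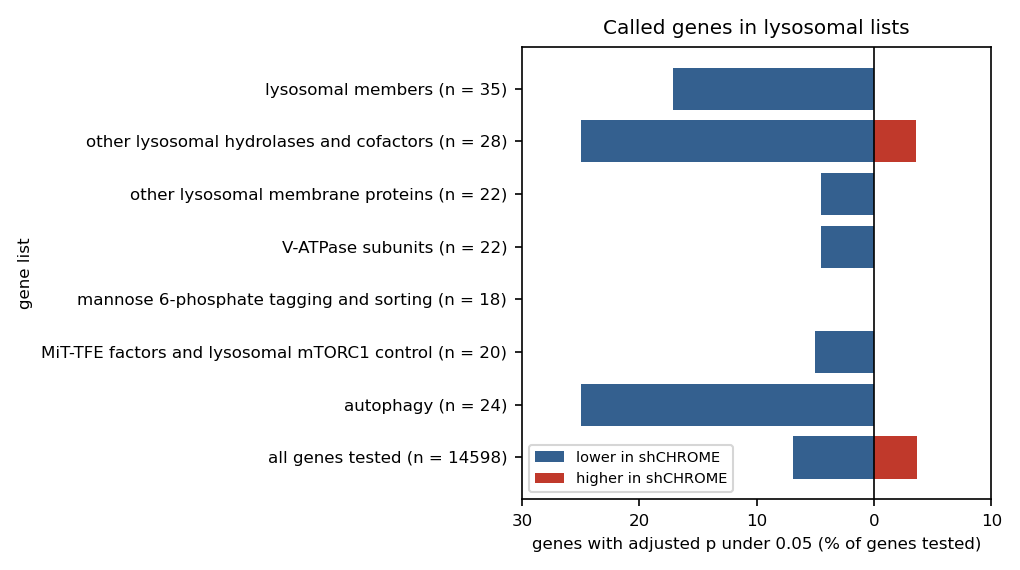
Genes with an adjusted p under 0.05 as a percentage of genes tested (x axis), lower in shCHROME to the left of 0 and higher to the right, for the 35 tested lysosomal genes, 6 further lists and all 14598 genes tested (rows, with the number tested). Lower genes were 17.1% of the lysosomal genes, 25.0% of the other hydrolases and of autophagy genes, and 6.87% of all genes.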

How the data were processed

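Total RNA went through a TruSeq RNA kit and paired HiSeq sequencing, per the labels' protocols. The submitters' processing notes name STAR 2.5 and featureCounts 1.5.2, DESeq2 with the version 3.4, and the build hg19. Annotation and strand use: not given in the sources used here. The authors deposited 1 table with a signal per gene and library (from its values, read counts divided by 1 factor per library), next to the authors' p-value (raw and adjusted), mean and log2 fold change. After removal of 1288 repeated rows it held 23368 genes. Division by each library's smallest step gave whole numbers within 0.01 for 100% of values, so whole reads were recovered for the filter and the count tests.

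Groups came from the sample titles. The test was limma 3.58.1 (eBayes with a trend) on log2(value + 1), genes kept by filterByExpr of edgeR 4.0.16, group as the only term and Benjamini-Hochberg adjustment over 14598 genes. The fit was tested on simulated data with known changes. Alternatives were edgeR, DESeq2 1.42.0, 4 library scalings, 2 filters, pseudocount 0.1, the letter as replicate block, and each library left out in turn. All lysosomal genes are named; of each further list up to 4 are, called ones by adjusted p first, otherwise the most abundant. LAMTOR4 and LAMTOR5 were matched by older symbols. The lysosomal genes and the lists were chosen with earlier results of these data known. Exon overlaps with other genes, found for 15 of the 36 genes in GENCODE 29, use neighbour relations only. They include MCOLN1 with PNPLA6 on the same strand and IDUA with SLC26A1 on the other strand. Whether reads in shared exons were lost or misassigned in counting was not tested. Libraries of a group differed beyond sampling noise (chi-square over degrees of freedom 5.69 to 17.01). Read counts grow with transcript length, so levels are not compared between genes. Protein sequences were not used here. A gene of the further lists that the naming rule picks is not reported here.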

Additional observations from a re-analysis of the deposited data

How the results depend on the processing

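Of the 6 lysosomal genes that fell, the direction was the same in all 96 values under the 16 alternatives, and 84 of these kept the call. CTSB, CTSL1 and TFEB kept it in each; CTSA lost it in 6, SMPDL3A in 5 and PSAP in 1. The count of lower lysosomal genes ran from 4 to 7, and that of higher ones was 1 with upper quartile scaling and 1 with library totals, and 0 in the other 14. The summed level ratio was 0.925 with library totals and 0.893 with TMM scaling, against 0.894.

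Among the 29 genes not called, 34 of 464 values turned sign, in 11 genes, none of them called. With upper quartile scaling these were 0.01 for LGMN and PPT1 and 0.00 for TPP1, MAN2B1, FUCA1 and ARSA. With library totals they were 0.04 for LGMN, ARSA and PPT1, 0.03 for TPP1, MAN2B1, FUCA1 and MCOLN1, and 0.01 for GLB1. With 1 library left out, log2 fold changes ran from -0.03 to 0.04 for LGMN, -0.23 to 0.12 for TPP1, -0.06 to 0.28 for IDUA, -0.05 to 0.11 for NAGLU, -0.05 to 0.05 for MAN2B1, -0.06 to 0.01 for FUCA1, -0.05 to 0.02 for ARSA, -0.06 to 0.06 for PPT1, -0.14 to 0.10 for MCOLN1 and 0.00 to 0.05 for CTNS.

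In the further lists, the higher count of other hydrolases, 1, was 0 with DESeq2, with no expression filter and with the replicate block, and 0 to 1 with 1 library left out. The lower count of other membrane proteins, 1, was 2 with DESeq2 and with TMM scaling, and 0 to 3 with 1 library left out. Their higher count, 0, was 1 with upper quartile scaling and 2 with library totals. For mannose 6-phosphate tagging and sorting the higher count, 0, was 1 with upper quartile scaling, 1 with library totals and 0 to 1 with 1 library left out. Over all genes, with 1 library left out, 600 to 1056 were lower and 245 to 540 higher, and 936 were higher with library totals. The cause of these shifts was not tested.

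Libraries that share a letter did not deviate together (correlations of -0.047, -0.091 and 0.044), so the letters were not taken as pairs. With the replicate block 5 lysosomal genes were lower and 0 higher, and over all genes 349 were higher and 764 lower. MCOLN1, IDUA and CTSZ had the fewest reads, and the intervals of MCOLN1 and IDUA were the widest of the 35 tested genes.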
